A study of Mus musculus with 15 samples.

Results

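Hepatocytes sorted from mice given DDC were compared with hepatocytes sorted from untreated mice, by the accessibility of their chromatin. The comparison rests on 6 of the 15 libraries of the series, 3 from DDC hepatocytes and 3 from untreated hepatocytes, chosen by the library names in the deposited matrix. The other 9 libraries, 3 each from biliary cells of untreated mice, biliary cells of DDC mice and reprogrammed hepatocytes of DDC mice, entered the fit, and the biliary cells served as a second cell type under the same treatment. DDC is the usual name in liver research of diethoxycarbonyl-dihydrocollidine. All cells came straight from mouse liver, with no culture. The sources used here do not give the strain, sex and age of the mice, the dose and duration of DDC, and the antibodies or reporters of the sort. Whether a group's 3 libraries are from 3 different animals is also unstated, so each p-value measures the spread between libraries, which may be technical. For changes fitted on all libraries, a gene's spread was estimated over all 15, not over the 6 hepatocyte libraries alone.

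The assay was ATAC-seq, in which a transposase cuts and tags DNA where chromatin is open, so that promoters and enhancers in use collect reads. DDC damages the heme of cytochromes P450, and the product blocks ferrochelatase, the enzyme that puts iron into protoporphyrin. Porphyrin then builds up and plugs small bile ducts, and hepatocytes lose their heme feedback. Injured hepatocytes raise keratin 8 and keratin 18 and can gather them with the adaptor p62 into Mallory-Denk bodies, and they switch on stress transcription factors of the AP-1 family.

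The untreated libraries were shallower than the DDC libraries. The untreated libraries held 201705, 605309 and 234867 reads in nuclear regions, and the DDC libraries held 2342643, 2088373 and 1191409. Mitochondrial regions took 84.2, 63.1 and 82.6% of the reads in regions in untreated hepatocytes and 29.1, 30.8 and 42.4% in DDC hepatocytes. The shares of the groups did not overlap, with a difference of -42.55 percentage points and an exact permutation p of 0.1 (two-sided), the smallest that 3 against 3 libraries allow. Levels are therefore given per 1e6 nuclear reads, called nuclear RPM below. Of 93215 nuclear regions, 40.4 to 59.1% had no read in an untreated library and 17.6 to 28.2% in a DDC library. Among regions with 1 to 10 reads, 75.9 to 82.2% had an even count in untreated libraries and 68.6 to 72.3% in DDC libraries, so reads do not count independent fragments, and a floor of 6 reads (3 read pairs) over a group was used where a gene had none. Counting error covers only part of the spread between libraries: pairs of untreated libraries differed by a chi-square of 2.18 to 2.42 per degree of freedom, and pairs of DDC libraries by 2.73 to 3.83.

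Hepatocyte markers were high and bile duct markers low in both groups. Alb, the albumin gene, stood at 769, 867 and 468 nuclear RPM in untreated hepatocytes and at 608, 930 and 540 in DDC hepatocytes. Over the pooled libraries of a group, Alb reached 758 in untreated and 713 in DDC hepatocytes against 104 in untreated and 63.9 in DDC biliary cells. Hnf4a, the transcription factor that maintains hepatocyte identity, pooled to 425 and 381 in hepatocytes and to 75.9 and 76.2 in biliary cells of untreated and DDC mice. Krt19, a keratin of bile duct cells, pooled to 26.9 in untreated and 6.76 in DDC hepatocytes against 131 in biliary cells of each treatment, and Epcam, an adhesion molecule of bile duct epithelium, to 33.6 and 27.6 against 130 and 212. In such bulk libraries, fewer cells of a type and less open chromatin per cell cannot be told apart.

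DDC hepatocytes had higher summed accessibility than untreated hepatocytes at 92 genes and lower at 8, of 14344 genes tested. A gene's value is the sum over the regions that touch it and the regions that touch no gene and lie nearest to it, within 50 kb. This value measures open chromatin, not expression. Higher calls made up 0.641% of the tested genes and lower calls 0.0558% (limma, adjusted p under 0.05). The genes called higher included Krt18, which encodes a keratin of Mallory-Denk bodies, the actin-binding protein gene Tagln2, the calcium-binding protein gene S100a11, the desmosome linker gene Ppl, the metallothionein gene Mt1, the survival gene Mcl1 and the glycolytic gene Gapdh. Those called lower included Elovl3, which elongates long fatty acids, the growth factor receptor gene Erbb4, and Serpina5, the gene of a protease inhibitor. Changes among the higher genes ran from 1.09 to 3.13 on the log2 scale (median 1.85), and among the lower genes from -1.40 to -3.43 (median -1.95). The median over all tested genes was 0.14, and 61.3% of them had a positive change. In all 100 called genes the 3 DDC values lay beyond the 3 untreated ones, which was also true of 14.4% of all tested genes upward and 7.74% downward.

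**Figure D1:**
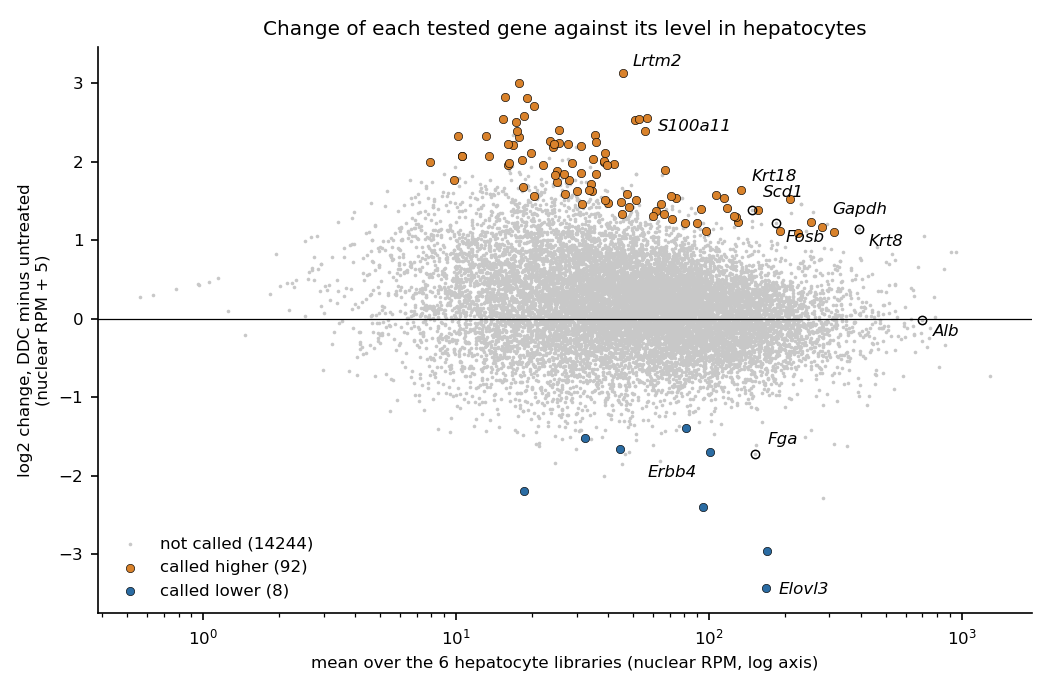
Log2 change between DDC and untreated hepatocytes for each of the 14344 genes tested (vertical axis, nuclear RPM + 5) against its mean over the 6 libraries (horizontal log axis, nuclear RPM). Orange points mark the 92 genes called higher and blue points the 8 called lower, and open circles mark named genes that were not called. Many of the largest rises belong to genes of low mean level, and Alb lies at -0.01.

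The number of calls depended on the fit and on single libraries. The fit estimated 1 spread per gene over all 15 libraries, scaled by 1 weight per group. Untreated hepatocytes received a weight of 0.188, DDC hepatocytes 0.752 and DDC biliary cells 3.33. A missing call therefore does not rest on the hepatocyte spread alone. With equal weights 1544 genes were higher and 698 lower (10.8 and 4.87%), with edgeR's quasi-likelihood test on the recovered reads 579 and 373 (4.04 and 2.6%), and with TMM scaling 44 and 2 (0.307 and 0.0139%). With only the 6 hepatocyte libraries and no group weights, limma gave 30 and 9. This fit is called limma on the hepatocytes alone. With only those libraries edgeR gave 118 and 113 (0.823 and 0.788%). Of the 92 higher genes, edgeR kept 87, edgeR on the hepatocytes alone 58, TMM scaling 44 and limma on the hepatocytes alone 22, and of the 8 lower genes these fits kept 8, 8, 2 and 3. Every one of the 100 genes kept its direction in those fits. Leaving out DDC library 1, 2 or 3 gave 20 and 0, 31 and 0, or 390 and 123 calls, and leaving out untreated library 1, 2 or 3 gave 34 and 1, 68 and 0, or 44 and 2. The 12 higher genes called in all 6 of those fits were Cacna2d4, Col17a1, Iqgap3, Izumo2, Lrtm2, Pde6c, Ppl, Prss22, S100a11, Slc6a19, Tagln2 and Tpsg1, and no lower gene was. Each of the other called genes named in the text lost its call in at least 1 of those fits. On the scale as deposited, with mitochondrial reads in the total, 11410 genes were higher and 2 lower, and the median of all genes moved up by 1.13.

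Promoters of 6 genes, 4 of them in called regions, are printed here. They are shown for Krt18 and Krt8, the keratin pair of injured hepatocytes, for S100a11 and Tagln2, called in every fit that left out 1 library, for Fosb, an AP-1 gene, and for Erbb4, the called lower gene whose start site lies in a called region. Each runs from 250 bases before to 30 bases after the annotated start (RefSeq, build GRCm38.p6, which has mm10 coordinates), 5′ to 3′ on the gene's strand. Capitals mark the letters of the AP-1 motif (TGANTCA), the GC box (GGGCGG), the CCAAT box (CCAAT) and the TATA box (TATAAA), read on both strands.
Krt18, chr15:102027966-102028245, plus strand: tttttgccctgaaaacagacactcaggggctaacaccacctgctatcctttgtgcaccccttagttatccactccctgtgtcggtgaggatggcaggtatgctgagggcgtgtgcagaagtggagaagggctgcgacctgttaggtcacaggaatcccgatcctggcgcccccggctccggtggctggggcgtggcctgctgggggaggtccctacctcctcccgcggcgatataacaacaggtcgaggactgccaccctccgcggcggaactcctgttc
Krt8, chr15:102004313-102004592, minus strand: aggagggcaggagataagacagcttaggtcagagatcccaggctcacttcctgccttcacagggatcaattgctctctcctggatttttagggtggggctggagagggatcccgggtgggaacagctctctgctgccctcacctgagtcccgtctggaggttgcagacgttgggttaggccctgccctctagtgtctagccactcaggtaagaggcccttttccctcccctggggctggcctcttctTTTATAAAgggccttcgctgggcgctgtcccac
S100a11, chr3:93520246-93520525, plus strand: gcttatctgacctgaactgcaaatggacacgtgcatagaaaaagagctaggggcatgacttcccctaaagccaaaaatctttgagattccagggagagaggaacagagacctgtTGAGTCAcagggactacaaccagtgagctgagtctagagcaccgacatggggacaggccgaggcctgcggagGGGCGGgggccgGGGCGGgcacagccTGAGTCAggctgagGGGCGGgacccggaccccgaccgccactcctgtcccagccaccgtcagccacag
Tagln2, chr1:172499996-172500275, plus strand: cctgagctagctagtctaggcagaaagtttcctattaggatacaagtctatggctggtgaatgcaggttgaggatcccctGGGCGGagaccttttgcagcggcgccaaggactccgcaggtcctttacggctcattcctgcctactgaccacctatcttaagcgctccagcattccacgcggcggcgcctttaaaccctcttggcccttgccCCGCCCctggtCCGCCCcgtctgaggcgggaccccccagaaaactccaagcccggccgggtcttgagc
Fosb, chr7:19310016-19310295, minus strand: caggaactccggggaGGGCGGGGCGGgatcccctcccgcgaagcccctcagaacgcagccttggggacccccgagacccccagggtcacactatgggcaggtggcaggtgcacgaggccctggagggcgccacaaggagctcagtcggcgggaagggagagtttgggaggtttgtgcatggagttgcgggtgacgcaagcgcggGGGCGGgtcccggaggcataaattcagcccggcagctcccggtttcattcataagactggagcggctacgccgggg
Erbb4, chr1:69108030-69108309, minus strand: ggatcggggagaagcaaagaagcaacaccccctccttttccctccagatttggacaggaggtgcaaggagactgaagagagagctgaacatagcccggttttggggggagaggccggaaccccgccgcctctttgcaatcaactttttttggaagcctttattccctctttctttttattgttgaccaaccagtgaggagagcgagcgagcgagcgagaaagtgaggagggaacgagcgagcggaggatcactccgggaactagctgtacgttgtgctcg

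The S100a11 promoter held the AP-1 letters at 136 and 38 bases before the start and 3 GC boxes. The Fosb and Tagln2 promoters held 3 GC boxes each, the Krt8 promoter overlapping TATA letters at its start, and the Krt18 and Erbb4 promoters none of the 4 motifs. Of 32851 promoters of 300 bases, 7.81% held the AP-1 letters, 35.7% the GC box, 37.4% the CCAAT box and 13.6% the TATA box. Promoters were at hand for 67 of the 92 higher genes. AP-1 letters stood in 2 of those 67, GC boxes in 45, CCAAT boxes in 21 and TATA boxes in 9. AP-1 letters can overlap those of the antioxidant response element (TGACNNNGC), which stood in 12.4% of all promoters and in 2 of the 67. All these shares also cover promoters of genes that were not tested, so they are no like background for the 67.

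Of the keratin genes, Krt18 was called higher in DDC hepatocytes, while the others did not pass and differed in sign. Krt18 had 69.4, 79.3 and 38.3 nuclear RPM in untreated hepatocytes and 169, 156 and 290 in DDC hepatocytes. Each DDC library was above each untreated one, and the change was 1.64 ± 0.37 on the log2 scale (estimate ± SE, n = 3 per group, adjusted p = 0.0352). Its call was lost with TMM scaling (adjusted p = 0.0955) and without DDC library 1 or any of the untreated libraries (up to 0.195). Krt8, the partner of keratin 18 in every simple epithelium, had 292, 236 and 187 in untreated and 527, 375 and 729 in DDC hepatocytes. These groups did not overlap either, and the change of 1.14 ± 0.35 did not pass in limma (adjusted p = 0.11) but passed in edgeR on all libraries (0.00144) and on the hepatocytes alone (0.00926). One of the 2 regions of Krt8 also touches Krt78. Sqstm1, the gene of p62, stood at 175 ± 31.4 in untreated and 275 ± 27.2 in DDC hepatocytes (mean ± SD), a change of 0.65 ± 0.25 that did not pass (adjusted p = 0.204). Krt19 had the opposite sign, with 69.4, 19.8 and 8.52 in untreated and 5.55, 6.70 and 9.23 in DDC hepatocytes, where the third untreated library overlapped the DDC range (-1.28 ± 0.45, adjusted p = 0.161). Krt7, another duct keratin, had 19.8, 16.5 and 25.6 in untreated and 16.2, 6.70 and 8.39 in DDC hepatocytes (-0.77 ± 0.41, adjusted p = 0.38). Of 10 tested genes of the list of keratins and Mallory-Denk body genes 1 was called higher, 4 were higher and 1 lower at an unadjusted p under 0.05 (40 and 10%, against 11.4 and 3.56% of all genes), and the median change was 0.38.

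Several other called genes, picked after their values were seen and forming no tested group, encode proteins of junctions, cytoskeleton or cell surface. S100a11 had 9.92, 16.5 and 17.0 nuclear RPM in untreated hepatocytes and 92.6, 74.7 and 125 in DDC hepatocytes. Its lowest DDC library was over any untreated one, and the change was 2.39 ± 0.40 (adjusted p = 0.0032). Tagln2 had 79.3, 46.3 and 34.1 in untreated and 174, 162 and 144 in DDC hepatocytes, a gap wider than the spread of either group (1.57 ± 0.25, adjusted p = 0.0032). The single region of Tagln2 also touches Igsf9, an adhesion molecule gene called at 1.29 ± 0.23 (adjusted p = 0.00566), so the pair is counted on shared reads. Ppl, which encodes the desmosomal protein periplakin, stood at 85.0 ± 21.1 in untreated and 227 ± 22.7 in DDC hepatocytes (1.39 ± 0.24, adjusted p = 0.00556). Col17a1, a hemidesmosome collagen gene, had 2 reads over the untreated libraries and 163 over the DDC libraries (2.54 ± 0.47, adjusted p = 0.00758). F2rl1, the gene of a receptor cleaved by serine proteases, stood at 33.9 ± 7.38 and 109 ± 13.6 (1.56 ± 0.28, adjusted p = 0.00566). Keratin, periplakin, hemidesmosome and S100a11 genes are used by many epithelia, and the biliary marker list below gives the level of bile duct genes in the same libraries.

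**Figure D2:**
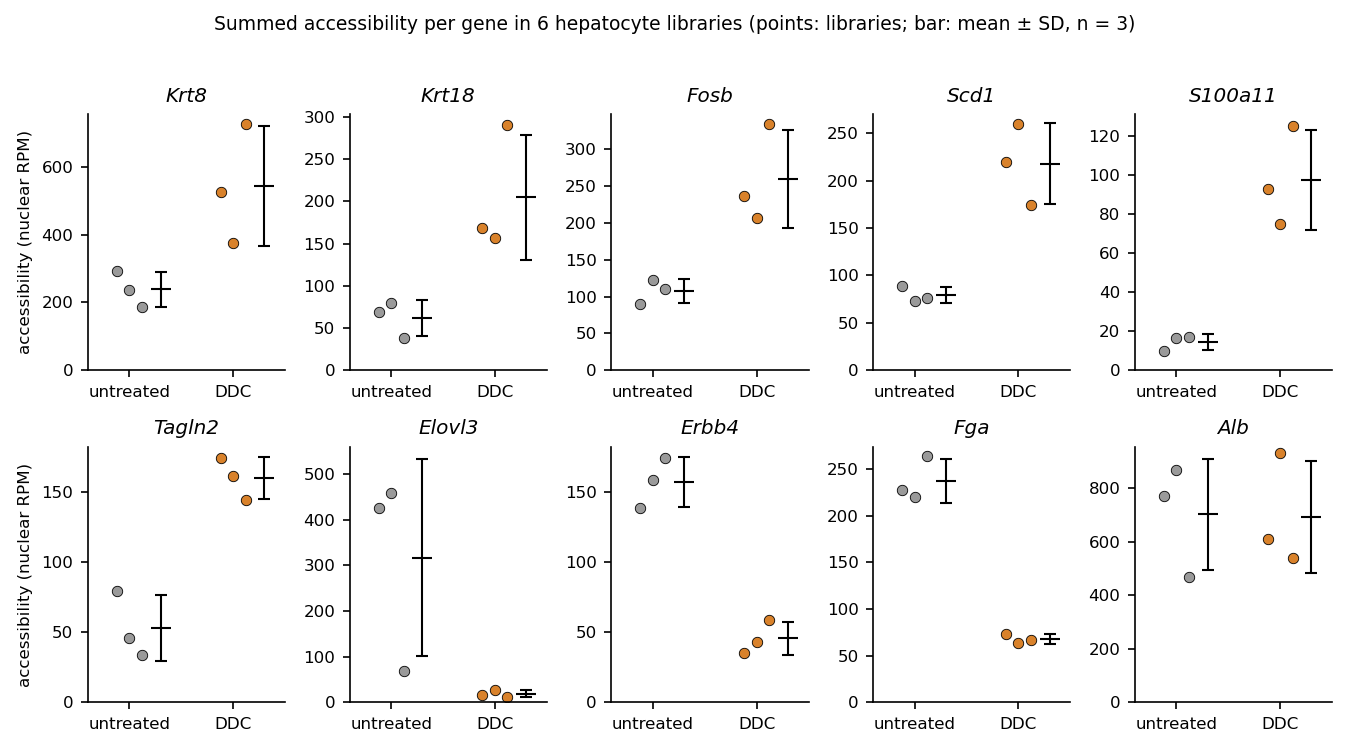
Summed accessibility (vertical axes, nuclear RPM) of 10 genes in the 3 untreated and 3 DDC hepatocyte libraries (points), with mean ± SD beside them. All DDC values of Krt8, Krt18, Fosb, Scd1, S100a11 and Tagln2 lie above the untreated values, all of Elovl3, Erbb4 and Fga lie below, and those of Alb overlap. Of these, Krt8, Fosb, Scd1, Fga and Alb were not called.

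AP-1 genes had a positive median change and no call. Fosb, an immediate early AP-1 subunit, had 89.2, 122 and 111 nuclear RPM in untreated hepatocytes and 237, 207 and 335 in DDC hepatocytes. The groups were apart, with a change of 1.22 ± 0.36 that missed the threshold in limma (adjusted p = 0.0967) and passed in edgeR on all libraries (0.00178) and on the hepatocytes alone (0.00926). A region of Fosb also touches Rtn2. Maff and Mafk, small Maf proteins that pair with AP-1 and NRF2, stood at 1.34 ± 0.34 (adjusted p = 0.0553) and 0.96 ± 0.28 (0.0906), and passed in edgeR on all libraries (0.0128 and 0.00413). Atf3, a stress-induced partner of AP-1, had 421, 360 and 434 in untreated and 708, 683 and 662 in DDC hepatocytes, so the libraries of each group lay close together and apart from the other group (0.75 ± 0.31, adjusted p = 0.244, edgeR 0.00258). Of 15 tested genes of the AP-1 list 0 were called, 5 were higher (33.3%) and 0 lower at an unadjusted p under 0.05 in limma, against 11.4 and 3.56% of all genes. The 3 DDC values were above the untreated ones in 7 and below in 0, next to 14.4 and 7.74% of all genes. Their median change was 0.44. The summed level of the list was 2300 to 2475 in untreated and 3089 to 3534 in DDC libraries.

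The genes of heme handling, the target of DDC, held no call. Alas1, the first and rate-limiting enzyme of heme synthesis, had 268, 628 and 647 nuclear RPM in untreated and 359, 374 and 348 in DDC hepatocytes, with untreated library 1 below and the others above the DDC values (-0.40 ± 0.46, adjusted p = 0.71). Fech, which encodes ferrochelatase, stood at 69.6 ± 22.8 in untreated and 91.2 ± 8.42 in DDC hepatocytes (0.41 ± 0.28, adjusted p = 0.506). Urod, an earlier enzyme of the pathway, had 19.8, 24.8 and 8.52 in untreated and 41.0, 54.6 and 40.3 in DDC hepatocytes, all higher (1.21 ± 0.40, adjusted p = 0.129, edgeR 0.0387). Hmox1, which breaks heme down, had 248, 106 and 200 in untreated and 108, 92.4 and 96.5 in DDC hepatocytes, where untreated library 2 overlapped the DDC range (-0.79 ± 0.27, adjusted p = 0.149, edgeR 0.0283). Its region within 1 kb of a gene end stood at 0.13 ± 0.37, and the tested regions outside the gene at -1.13 ± 0.40 and -0.81 ± 0.37, none called. The heme exporter gene Flvcr1 stood at 0.90 ± 0.37 (adjusted p = 0.244). Of 16 tested heme genes 0 were called, with 2 higher and 2 lower at an unadjusted p under 0.05 (12.5% each, against 11.4 and 3.56% of all genes) and a median of 0.13, next to 0.14 for all genes.

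The other stress lists held no call, and 3 called genes on no list, picked after their values were seen, are given first. Mt1, the metal-binding metallothionein, had 19.8, 76.0 and 93.7 nuclear RPM in untreated and 187, 136 and 174 in DDC hepatocytes and was called higher (1.53 ± 0.37, adjusted p = 0.0454), but not without DDC library 1 or 2 or untreated library 1 or 2 (up to 0.299). Mcl1, which protects cells from apoptosis, stood at 124 ± 60.7 and 257 ± 41.9 (1.12 ± 0.27, adjusted p = 0.0455). Id1, an inhibitor of helix-loop-helix factors that BMP signals raise, stood at 74.6 ± 4.49 and 186 ± 45.6 (1.24 ± 0.29, adjusted p = 0.0411). Among 18 tested targets of NRF2, the oxidative stress factor, 0 were called. Cbr3, a carbonyl reductase gene, stood at 1.16 ± 0.43 (adjusted p = 0.194), and Keap1, whose protein holds NRF2 back, at 0.94 ± 0.36 (adjusted p = 0.202). Of 13 tested genes of the unfolded protein response 0 were called or reached an unadjusted p under 0.05 in limma, and edgeR on all libraries gave adjusted p = 0.441 for the chaperone gene Dnajb9 (-0.89 ± 0.61) and 0.421 for Creb3l3, the gene of a hepatic membrane-bound transcription factor (0.60 ± 0.45).

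In lipid metabolism, a desaturation and an elongation gene had changes of opposite sign, and the second was called. Scd1, which puts the first double bond into saturated fatty acids, had 89.2, 72.7 and 76.6 nuclear RPM in untreated and 219, 260 and 175 in DDC hepatocytes. The lowest DDC value was well over the highest untreated one, with a change of 1.39 ± 0.35 that missed the threshold (adjusted p = 0.0564) and passed in edgeR on all libraries (0.000432) and on the hepatocytes alone (0.00313). A single region of Scd1, not tested by itself, held 144 reads over the DDC libraries and 0 over the untreated ones. The tested regions of Scd1 lay outside the gene, at 0.99 ± 0.48 and 1.63 ± 0.45, and neither was called (limma, adjusted p = 0.334 and 0.0652). Acly, which makes cytosolic acetyl-CoA, stood at 1.05 ± 0.33 (adjusted p = 0.119), and Fasn, the fatty acid synthase gene, at 0.89 ± 0.36 (adjusted p = 0.236, untreated library 1 within the DDC range). Of 21 tested genes of fatty acid synthesis 0 were called, with 5 higher and 3 lower at an unadjusted p under 0.05 (23.8 and 14.3%, against 11.4 and 3.56% of all genes) and a median of 0.23. In cholesterol synthesis Lss, which closes the sterol ring, stood at 1.11 ± 0.40 (adjusted p = 0.182) and Srebf2, the controlling transcription factor, at 0.69 ± 0.30 (0.279), and 0 of 18 genes were called. Fatty acid oxidation and ketogenesis had 0 of 15 called, with Acadvl at 0.99 ± 0.59 and Cpt2 at 0.87 ± 0.53, each with overlapping groups.

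Elovl3 had the lowest change of the 14344 genes tested. It had 426, 458 and 68.1 nuclear RPM in untreated hepatocytes and 17.1, 26.8 and 11.8 in DDC hepatocytes. All DDC libraries were lower, although untreated library 3 was far below the other two, and the fitted change was -3.43 ± 0.76 (adjusted p = 0.0328; edgeR 3.97e-05 on all libraries and 3.89e-06 on the hepatocytes alone). Nearly all of its reads, 356 of 379 in untreated hepatocytes, lay in 1 region (chr19:46135157-46141314) that also touches Pitx3, a homeobox gene (-2.95 ± 0.66, adjusted p = 0.0328). The pair is therefore 1 observation. The call was lost with TMM scaling (adjusted p = 0.0529 for Elovl3) and without DDC library 1 or 2 or untreated library 1 or 2 (up to 0.183).

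The other genes called lower were of several kinds. Erbb4, a receptor of neuregulins, had 139, 159 and 175 nuclear RPM in untreated and 35.4, 43.1 and 58.8 in DDC hepatocytes, with both groups tight and far apart (-1.70 ± 0.38, adjusted p = 0.0328). Its start site lies in a called region (chr1:69105272-69108999) with 86 reads in untreated and 68 in DDC hepatocytes. Serpina5 had 54.5, 62.8 and 400.2 in untreated and 14.1, 22.03 and 16.8 in DDC hepatocytes, so its mean rests on untreated library 3 (-2.40 ± 0.54, adjusted p = 0.0328). With regions near gene ends only, its log2 change was 0.22, of the opposite sign. Grik1, a glutamate receptor gene, had 24.8, 38 and 38.3 in untreated and 1.71, 4.31 and 4.20 in DDC hepatocytes (-2.20 ± 0.52, adjusted p = 0.0428), on 37 and 18 reads. Cstdc2, a cystatin-domain gene, stood at 70.9 ± 16.1 and 18.6 ± 1.34 (-1.67 ± 0.35, adjusted p = 0.0254), the annexin gene Anxa13 at 51.2 ± 25.9 and 13.6 ± 3.56 (-1.52 ± 0.36, 0.0454), and the interferon gene Ifnb1 at 120 ± 28.0 and 42.1 ± 6.71 (-1.40 ± 0.33, 0.0415). As deposited, Ifnb1 stood at 0.08. All 8 lower genes stayed called in both edgeR fits.

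The largest rises came from genes with almost no untreated reads. Of the 92 higher genes, 47 had 0 reads in at least 1 untreated library, 27 had 10 reads or fewer over all 3, and 4 had none. The median over these genes was 16.5 untreated and 310.5 DDC reads. Izumo2, a member of the sperm-egg fusion protein family, had 0 untreated reads and 46.1, 30.6 and 30.2 nuclear RPM in DDC hepatocytes, at least 6.42-fold higher when the untreated group is set to the floor of 6 reads (5.76 nuclear RPM). Tpsg1, a tryptase gene of mast cells, also had 0 untreated reads and 32.9, 21.1 and 40.3 in DDC hepatocytes, at least 5.22-fold higher, in 1 region shared with Cacna1h. Lrtm2, a leucine-rich repeat membrane protein gene, had 0, 9.91 and 8.52 in untreated and 100, 96.2 and 58.8 in DDC hepatocytes (3.13 ± 0.40, adjusted p = 0.000239). It shares regions with Cacna2d4, a calcium channel subunit gene (2.52 ± 0.35, adjusted p = 0.00037). Prss22, the gene of the epithelial protease tryptase epsilon, had 9.92, 23.1 and 8.52 in untreated and 109, 95.8 and 95.7 in DDC hepatocytes, a wide gap (2.56 ± 0.42, adjusted p = 0.0032). Plat, the tissue plasminogen activator gene, rested on 2 untreated and 217 DDC reads (2.82 ± 0.54, adjusted p = 0.0107), Iqgap3, a scaffold of dividing cells, on 4 and 196 (2.59 ± 0.43, 0.0032), Pde6c, a cone phosphodiesterase gene, on 4 and 223 (2.71 ± 0.45, 0.0032), and Cit, the cytokinesis kinase gene, on 23 and 513 (2.54 ± 0.49, 0.0107). Slc6a19, a neutral amino acid transporter gene, rested on 14 and 367 (2.11 ± 0.34, 0.0032). Because 5 nuclear RPM were added before the logarithm, the fitted changes of such genes are no bounds. Among the 92 genes, 20 share a region with another called gene.

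Secreted hepatocyte proteins had no called gene, and within this list the fibrinogen genes had the lowest values. Fga, the fibrinogen alpha chain gene, had 228, 220 and 264 nuclear RPM in untreated and 73.9, 63.7 and 67.2 in DDC hepatocytes, tight within and far apart between groups. The change was -1.72 ± 0.53 and did not pass in limma on all libraries (adjusted p = 0.11), while limma on the hepatocytes alone gave 0.0167 and edgeR 0.000727. Its neighbours Fgg and Fgb, the other chains, stood at -1.10 ± 0.38 (adjusted p = 0.156, edgeR 0.00112) and -0.99 ± 0.31 (0.119, edgeR 0.00178), and their groups did not overlap. Of 28 tested genes of secreted hepatocyte proteins 0 were called, with 0 higher and 4 lower at an unadjusted p under 0.05 (0 and 14.3%, against 11.4 and 3.56% of all genes) and a median of -0.03. The 3 DDC values lay above the untreated ones in 0 of the 28 and below in 7, next to 14.4 and 7.74% of all genes. Alb stood at -0.01 ± 0.67 and the transthyretin gene Ttr at -0.46 ± 0.35, and Apoa1, the main protein gene of high-density lipoprotein, at -0.15 ± 0.66. Among 22 hepatocyte transcription factors 0 were called and the median was -0.04, with Hnf4a at -0.04 ± 0.52, Tbx3 at 0.76 ± 0.39 and Gata6 at 0.60 ± 0.29.

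Metabolic lists of the liver held no call in limma on all libraries. Glul, glutamine synthetase of the hepatocytes around the central vein, had 248, 240 and 204 nuclear RPM in untreated and 99.5, 132 and 114 in DDC hepatocytes, without overlap (-0.98 ± 0.26, adjusted p = 0.0701, edgeR 0.000827). Cyp2e1, a P450 of the same zone, had 193, 269 and 238 in untreated and 77.7, 77.1 and 63.8 in DDC hepatocytes, again apart (-1.61 ± 0.86, adjusted p = 0.378), and it passed in limma on the hepatocytes alone (0.0239) and in edgeR (0.026). Cyp3a13, another P450, had a positive change, with 9.92, 6.61 and 8.52 against 32.9, 37.4 and 31.9 (1.55 ± 0.52, adjusted p = 0.139, edgeR 0.0176). G6pc, which releases glucose from the liver, stood at 465 ± 204 and 162 ± 102 (-1.59 ± 0.70, adjusted p = 0.277, edgeR 0.0109), and Igfbp1, an insulin-regulated binding protein gene, at 516 ± 166 and 260 ± 21.3 (-0.93 ± 0.79, adjusted p = 0.6). Tdo2, which opens tryptophan breakdown, stood at 526 ± 195 and 176 ± 84.9 (-1.62 ± 0.98, adjusted p = 0.439, edgeR 0.047). Cps1, the entry enzyme of the urea cycle, had 1363, 1920 and 1460 in untreated and 562, 1166 and 1262 in DDC hepatocytes (-0.73 ± 1.02, adjusted p = 0.778). In bile acid synthesis Cyp27a1 stood at -0.97 ± 0.74 and Cyp8b1 at -0.91 ± 0.65, neither called. List medians were -0.18 for gluconeogenesis and glycogen (13 genes), -0.32 for bile acids (17), 0.14 for the xenobiotic response (14), -0.35 for urea cycle and amino acids (16) and 0.21 for pericentral genes (14). The DDC values lay wholly below the untreated ones in 5 of the 14 pericentral, 4 of the 16 urea cycle and 3 of the 13 gluconeogenesis genes, and wholly above in 1 of each list, next to 7.74 and 14.4% of all genes.

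Among acute phase and iron genes 0 of 17 were called. Trf, the transferrin gene, had 307, 563 and 477 nuclear RPM in untreated and 683, 741 and 1484 in DDC hepatocytes, highest in DDC library 3 (1.05 ± 0.51, adjusted p = 0.332, edgeR 0.0256). Fgl1, a hepatic fibrinogen-like gene, stood at 54.8 ± 14.9 and 23.0 ± 1.26 (-1.07 ± 0.51, adjusted p = 0.323, edgeR 0.0392). Gapdh, often used as an even control, was called higher, with 174, 150 and 183 in untreated and 343, 331 and 504 in DDC hepatocytes (1.17 ± 0.27, adjusted p = 0.0366), in 1 region shared with Iffo1 and not without any single library of 5 of the 6 (up to 0.173). Of 38 ribosomal protein genes, read as a second group of steady genes, 1 was called higher, against 0.641% of all genes. It was Rps2 (1.59 ± 0.39, adjusted p = 0.0464, on 12 untreated reads). At an unadjusted p under 0.05, 8 of the 38 were higher and 0 lower (21.1 and 0%, against 11.4 and 3.56% of all genes). Rps15 stood at 1.44 ± 0.50 and Rps18 at 1.27 ± 0.44, and the list median was 0.27. Of 28 nuclear genes of the respiratory chain 0 were called or reached an unadjusted p under 0.05 in limma, Cox5a stood at 0.82 ± 0.44 and Cox7c at -0.60 ± 0.38 (edgeR adjusted p = 0.186 and 0.168), and the median was 0.14.

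Bile duct and progenitor genes held no call. Of 32 tested genes 5 were higher and 5 lower at an unadjusted p under 0.05 (15.6% each, against 11.4 and 3.56% of all genes), and the median was -0.11. The 3 DDC values lay above the untreated ones in 3 and below in 6, next to 14.4 and 7.74% of all genes. Sox9, a transcription factor of duct cells, had 89.2, 57.8 and 51.1 nuclear RPM in untreated and 126, 78.0 and 52.0 in DDC hepatocytes (0.30 ± 0.35, adjusted p = 0.721). Spp1, the osteopontin gene, stood at 28.3 ± 11.3 and 32.5 ± 6.94 (0.21 ± 0.41, adjusted p = 0.841), and Epcam at 37.6 ± 10.3 and 27.6 ± 0.685 (-0.36 ± 0.31, adjusted p = 0.612). Sox9, Spp1 and Epcam overlapped between the groups. Pkhd1, the fibrocystin gene of duct cilia, had 481, 324 and 353 in untreated and 137, 163 and 236 in DDC hepatocytes (-1.10 ± 0.31, adjusted p = 0.0779, edgeR 0.00135). Anxa3, an annexin gene, stood at -1.36 ± 0.41 (adjusted p = 0.105, edgeR 0.00968) and Itgb6, an integrin subunit of injured epithelium, at -1.29 ± 0.43 (0.139, edgeR 0.021). The summed list stood at 1915 to 2826 in untreated and 1818 to 2004 in DDC libraries.

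Signalling and growth lists also held no call. Hes1, the classic Notch target, had 188, 168 and 179 nuclear RPM in untreated and 378, 299 and 315 in DDC hepatocytes, well apart (0.87 ± 0.23, adjusted p = 0.0711, edgeR 0.000727). Dll1, a Notch ligand gene, stood at 0.92 ± 0.31 (adjusted p = 0.139, edgeR 0.0144) and Rfng, a modifier of Notch, at 1.10 ± 0.44 (0.234). Hey2 of the same list stood at -0.78 (limma, adjusted p = 0.27). The list median was 0.22, and 4 of 18 Notch genes were higher and 1, Hey2, lower at an unadjusted p under 0.05 (22.2 and 5.56%, against 11.4 and 3.56% of all genes). Among 21 YAP targets 4 were higher and 1 lower at that level (19.0 and 4.76%), with Ankrd1 at 0.97 ± 0.51 and Amotl1 at -1.17 ± 0.38, and the median was 0.42. Of 20 TGF-beta and matrix genes 3 were higher and 2 lower at an unadjusted p under 0.05 (15 and 10%). Ccl2, a chemokine that draws monocytes, had 69.4, 23.1 and 42.6 in untreated and 125, 92.9 and 80.6 in DDC hepatocytes (1.15 ± 0.43, adjusted p = 0.194, edgeR 0.0121), and Cxcl14 stood at 0.81 ± 0.53. In the inflammation list 3 of 22 genes were higher and 0 lower at an unadjusted p under 0.05 (13.6 and 0%), the first near the share of all genes. Ccnb1 and Ccnd1, cyclins of mitosis and of the G1 phase, stood at 0.94 ± 0.36 and 0.79 ± 0.31 (adjusted p = 0.214 and 0.224), and the median of 25 cell cycle and damage genes was 0.02.

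**Figure D3:**
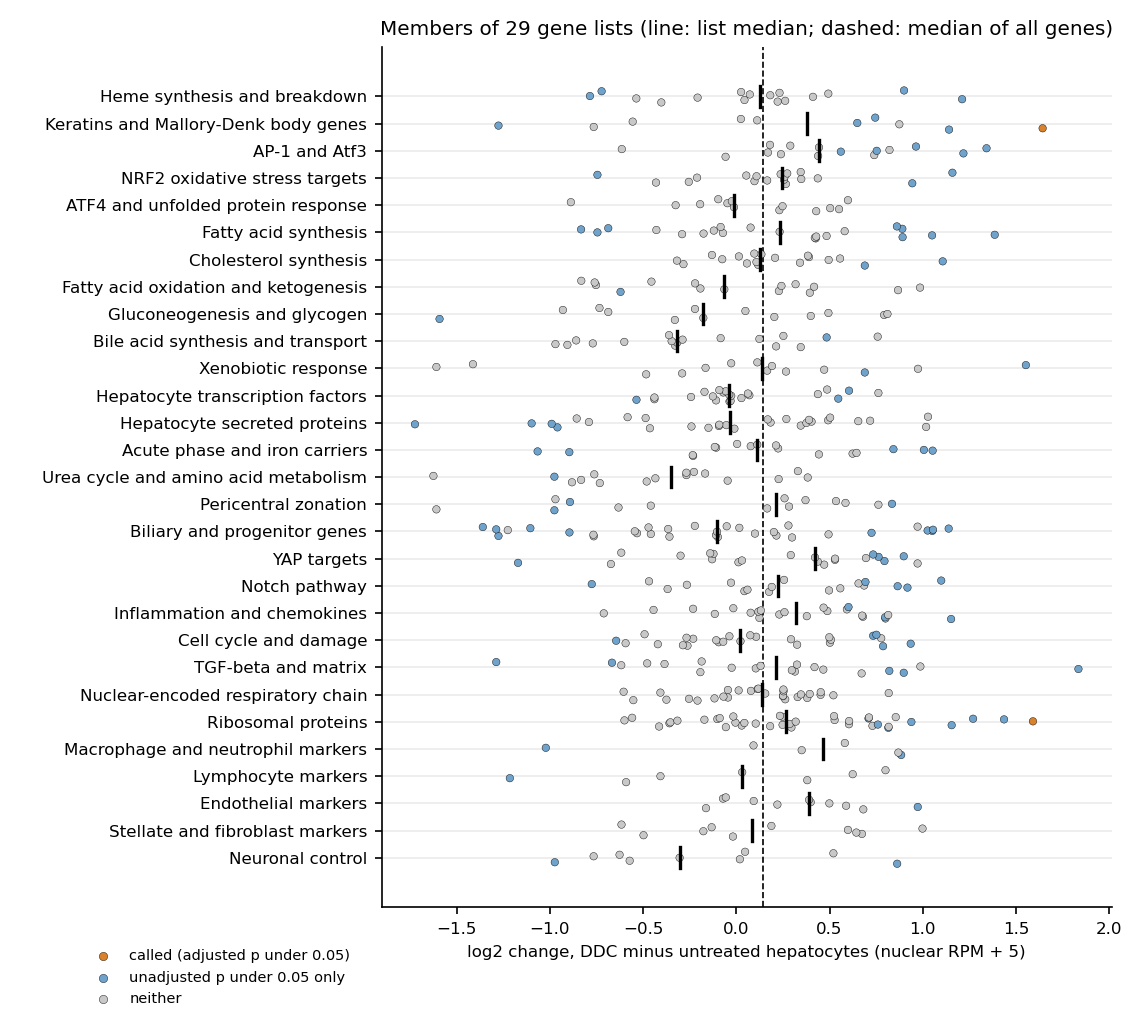
Log2 change between DDC and untreated hepatocytes (horizontal axis, nuclear RPM + 5) of the tested members of 29 gene lists, 1 point a gene. Orange points were called, blue points had an unadjusted p under 0.05 only, black bars are list medians and the dashed line is the median of all genes (0.14). The called members are Krt18 and Rps2. The AP-1 list has a median of 0.44, next to 0.47 for macrophage and neutrophil markers, 0.42 for YAP targets and 0.39 for endothelial markers.

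Marker genes of other liver cells were read as summed levels, and the macrophage and endothelial sums were higher in DDC libraries. Macrophage and neutrophil markers summed to 126 to 178 nuclear RPM in untreated and 194 to 223 in DDC libraries over 6 tested genes of 16, endothelial markers to 332 to 383 and 412 to 438 over 11 of 16, lymphocyte markers to 174 to 247 and 160 to 183 over 7 of 18, and stellate and fibroblast markers to 221 to 243 and 201 to 254 over 10 of 16. No region was tied to Adgre1, Clec4f, Lyz2 or Cd79a, and Cd8a had 0 reads in all 6 libraries. Cd68, a macrophage gene whose region also touches Mpdu1, stood at 35.6 ± 3.56 and 70.1 ± 8.49 (0.88 ± 0.31, adjusted p = 0.163, edgeR 0.0205). S100a9 of neutrophils stood at -1.02 ± 0.48, the pan-leukocyte gene Ptprc at -1.22 ± 0.50, the T cell chemokine gene Ccl5 at 0.80 ± 0.41, the endothelial genes Stab1 and Pecam1 at 0.97 ± 0.43 and 0.68 ± 0.39, and the stellate and fibroblast genes Dcn and Des at 0.999 ± 0.532 and 0.67 ± 0.53. In these lists 0 genes were called. Neuronal genes, a list with no role in hepatocytes, summed to 430 to 555 in untreated and 286 to 414 in DDC libraries, with Syt1 at -0.97 ± 0.30 (adjusted p = 0.114, edgeR 0.0058) and Rbfox3 at 0.86 ± 0.37. The macrophage and endothelial sums were higher and the neuronal sum lower in each DDC library than in each untreated one, and their part in the calls was not tested. Pooled over a group, some single markers were higher in DDC hepatocytes and others were near level or lower. In untreated and DDC hepatocytes, Csf1r of macrophages stood at 20.2 and 41.6 and Pecam1 at 13.4 and 26.0. The fibroblast collagen gene Col1a1 stood at 19.2 and 39.3. The endothelial genes Cdh5, Kdr and Lyve1 stood at 13.44 and 12.98, 6.719 and 5.336, and 18.24 and 19.39. The stellate gene Pdgfrb stood at 5.759 and 6.225, and Ptprc at 51.83 and 20.45. Depth was higher and the mitochondrial share lower in each DDC library. With all libraries thinned to the same depth, 44 of the 92 higher and 3 of the 8 lower genes stayed called, and the part of the mitochondrial share was not tested.

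The same test was made for single regions. Of 12821 regions tested, 198 were higher (1.54%) and 7 lower (0.0546%) in DDC hepatocytes. Among the higher regions 44.4% lay within 1 kb of a gene end against 64.7% of all tested regions, and 43.9% held a start site against 58.3%. The leading region lay near Tnfrsf11a, the gene of the RANK receptor (chr1:105864891-105867974), with 0 reads in each untreated library and 84, 66 and 58 in the DDC libraries (3.11 ± 0.38, adjusted p = 0.000125). A region near Gch1, the entry enzyme of tetrahydrobiopterin synthesis (chr14:47133725-47137263), also had 0 untreated reads against 85, 64 and 42. Regions inside Hs1bp3 (chr12:8333137-8335377) and at the start of Ccdc120 (chrX:7739014-7741615) had 10 and 6 untreated reads against 295 and 267, and a region over 50 kb from any gene (chr7:95852707-95854139) had 2 against 271. The region at the S100a11 start (chr3:93519966-93523565) had 4 against 255 (2.66 ± 0.41, adjusted p = 0.00105). The region at the Krt18 start (chr15:102022369-102040679) was called at 1.78 ± 0.40 (adjusted p = 0.0206), and those at the starts of Krt8 and Fosb were not (0.204 and 0.134).

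Of the 7 lower regions, 6 lay near a gene end. Besides those of Erbb4 and Elovl3, the leading ones lay in Fga (chr3:83030324-83034868; 26, 98 and 52 reads in untreated, 65, 67 and 40 in DDC hepatocytes; -2.25 ± 0.52, adjusted p = 0.0234), at the starts of Cwf19l2 and Uchl3, and over 50 kb from a gene on chromosome 8. The start region of Fga stood at -0.35 ± 0.57, so the lower reads lay at the other end of the gene. Without DDC library 1, 2 or 3 the counts of higher and lower regions were 74 and 2, 104 and 3, or 376 and 30, and without untreated library 1, 2 or 3 they were 133 and 2, 121 and 0, or 118 and 1. With edgeR on the hepatocytes alone 113 and 64 regions were called, among them 91 of the 198 and all 7. With only the hepatocyte libraries and no group weights in limma, 10 regions were higher and 7 lower, among them 8 of the 198 and 2 of the 7.

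The same treatment was compared in biliary cells. There 2167 genes were called higher and 2410 lower (15.1 and 16.8% of those tested), on 5151190 to 10395918 nuclear reads per DDC and 2439831 to 4389653 per untreated library. Of the 92 genes higher in hepatocytes, 37 were also higher in biliary cells (40.2% of the 92 and 1.71% of the 2167) and 4 were lower. The difference of the DDC effects itself was called at 101 genes with the higher effect in hepatocytes (0.704%) and at 71 with the lower (0.495%), and 43 of the 92 were among them. The hepatocyte change that selected the 92 is part of that difference, so this overlap is partly built in. Scd1 stood at 1.39 in hepatocytes and -0.35 ± 0.13 in biliary cells, a difference of 1.73 ± 0.37 (adjusted p = 0.0203), and Fosb at 1.22 and -0.30 ± 0.14 (1.52 ± 0.38, adjusted p = 0.0454). Atf3 fell in biliary cells (-1.04 ± 0.12, adjusted p = 3.76e-07) and its difference was 1.79 ± 0.33 (adjusted p = 0.00893). For Krt8 and Krt18 the differences of 1.22 ± 0.38 and 1.28 ± 0.40 did not pass (adjusted p = 0.0988 and 0.0999). Hmox1 rose in biliary cells (0.42 ± 0.10, adjusted p = 0.00257), and its difference was -1.21 ± 0.29 (adjusted p = 0.035). The difference was -0.36 ± 0.40 at its region within 1 kb of a gene end (adjusted p = 0.69). At its tested regions outside the gene it was -1.35 ± 0.42 and -1.28 ± 0.40 (adjusted p = 0.086 and 0.0826). Anxa3 and Itgb6 also rose in biliary cells (0.86 ± 0.16 and 1.15 ± 0.16), with differences of -2.22 ± 0.44 and -2.43 ± 0.46 (adjusted p = 0.012 and 0.00893).

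The widest differences sat at genes that were low in one cell type. Arl1, a Golgi GTPase gene, changed by 2.34 ± 0.42 in hepatocytes and -0.59 ± 0.16 in biliary cells, and Olfr94, Pde6c, Tmem100, Bhlhe22 and Lcn12 followed with differences of 2.58 to 2.87. Tmem100 had 0 untreated reads in hepatocytes and was at least 3.46-fold higher in DDC hepatocytes. In the other direction Gjb5, a connexin gene, stood at -0.95 ± 0.46 in hepatocytes and rose by 2.65 ± 0.18 in biliary cells (-3.60 ± 0.50, adjusted p = 0.000914), and Fam124b, Lce1m, Grik1, Il23a and Gm35751 followed with differences of -3.06 to -3.30. Lce1m had 9 untreated and 10 DDC reads in hepatocytes and Il23a 10 and 27. Plat, Prss22, S100a11 and Erbb4 were called in the same direction in both cell types, with 1.64 ± 0.21, 2.04 ± 0.16, 1.23 ± 0.15 and -1.15 ± 0.14 in biliary cells, and their differences were not called. For S100a11 the biliary call went with a second region (chr3:93536948-93538939; 2.24 ± 0.27 in biliary cells), while its start region stood at 0.33 ± 0.15 there (adjusted p = 0.102) with a called difference of 2.32 ± 0.43 (0.00665). The counts of called differences depended on single libraries. They were 19 and 26 without DDC hepatocyte library 1, 22 and 22 without library 2, 359 and 173 without library 3, 19 and 21, 77 and 29, and 15 and 12 without untreated hepatocyte library 1, 2 and 3. Without DDC biliary library 2 they were 175 and 118, and without untreated biliary library 1, 2 or 3 they were 190 and 113, 43 and 37, or 54 and 43.

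**Figure D4:**
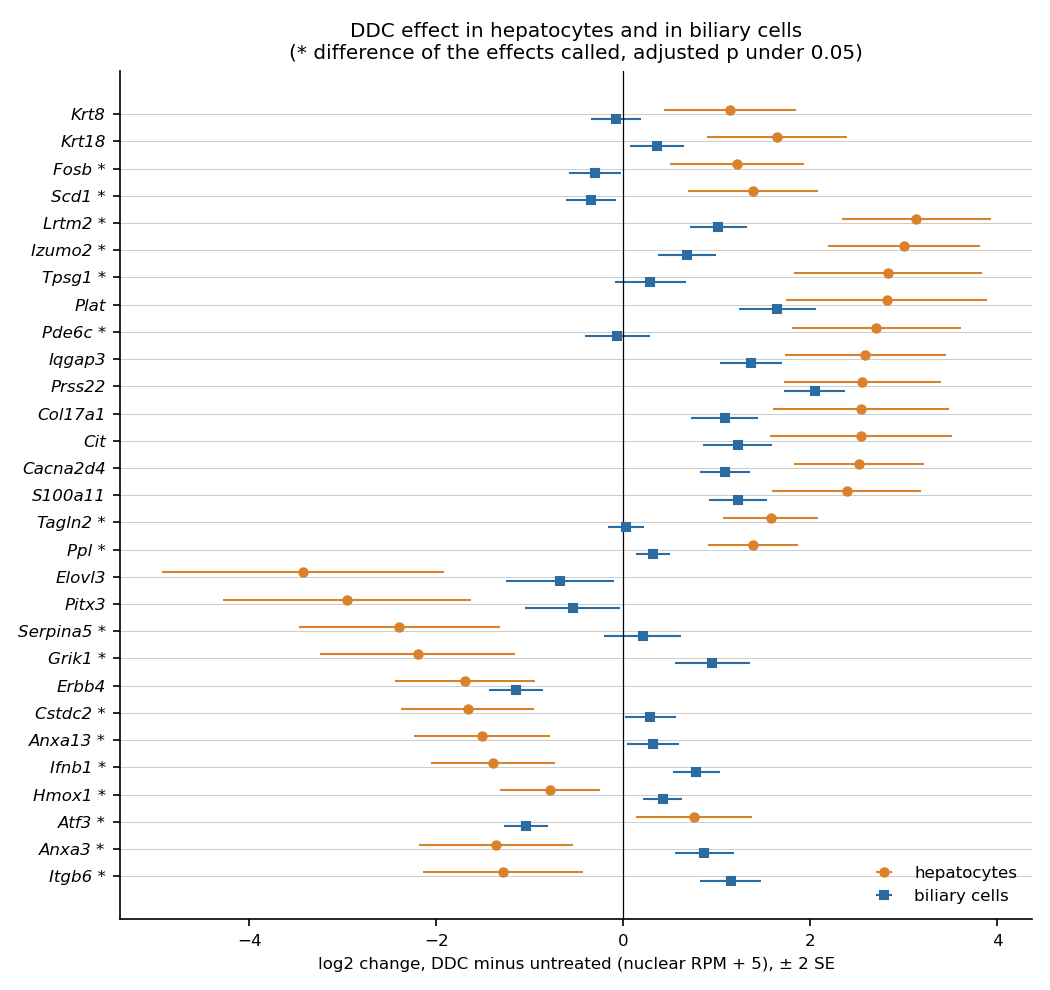
DDC effect (horizontal axis, log2 change ± 2 SE, nuclear RPM + 5) in hepatocytes (orange circles) and biliary cells (blue squares) for 29 genes, with a star where the difference of the effects was called. Fosb, Scd1 and Atf3 stand to the right in hepatocytes and to the left in biliary cells, Hmox1, Anxa3 and Itgb6 the other way round, and intervals are wider in hepatocytes.

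Summed over regions, the shares of DDC and untreated hepatocyte libraries differed by little, and they lay apart in some classes and overlapped in others. Regions within 1 kb of a gene end took 48.8, 49.9 and 49.8% of nuclear reads in untreated and 51.6, 51.2 and 52.5% in DDC hepatocytes. The difference of 2.25 percentage points exceeded the spread within either group, with an exact permutation p of 0.1, the smallest possible here (0.25 adjusted over 5 location classes). Regions over 50 kb from a gene took 7.73 ± 0.49% and 6.39 ± 0.29%, without overlap. Regions inside genes took 29.2 ± 0.38% and 28.3 ± 0.56%, and those up to 50 kb from a gene 13.58 ± 0.13% and 13.59 ± 0.38%. Regions of 5 kb or wider took 10.4 ± 0.76% and 11.04 ± 0.10%. In these last classes the groups overlapped. The 1458 regions that DDC raised in biliary cells (11.4% of those tested) took 4.22, 4.38 and 4.29% of nuclear reads in untreated hepatocytes and 6.07, 5.50 and 5.30% in DDC hepatocytes, all higher (exact permutation p = 0.1, adjusted over 2 sets 0.2). The 2696 regions that DDC lowered there (21.0%) took 19.7 ± 0.51% and 18.2 ± 1.05%, with overlapping groups (exact permutation p = 0.2). With the sets called without group weights the differences shrank to 0.35 and -0.23 points.

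**Figure D5:**
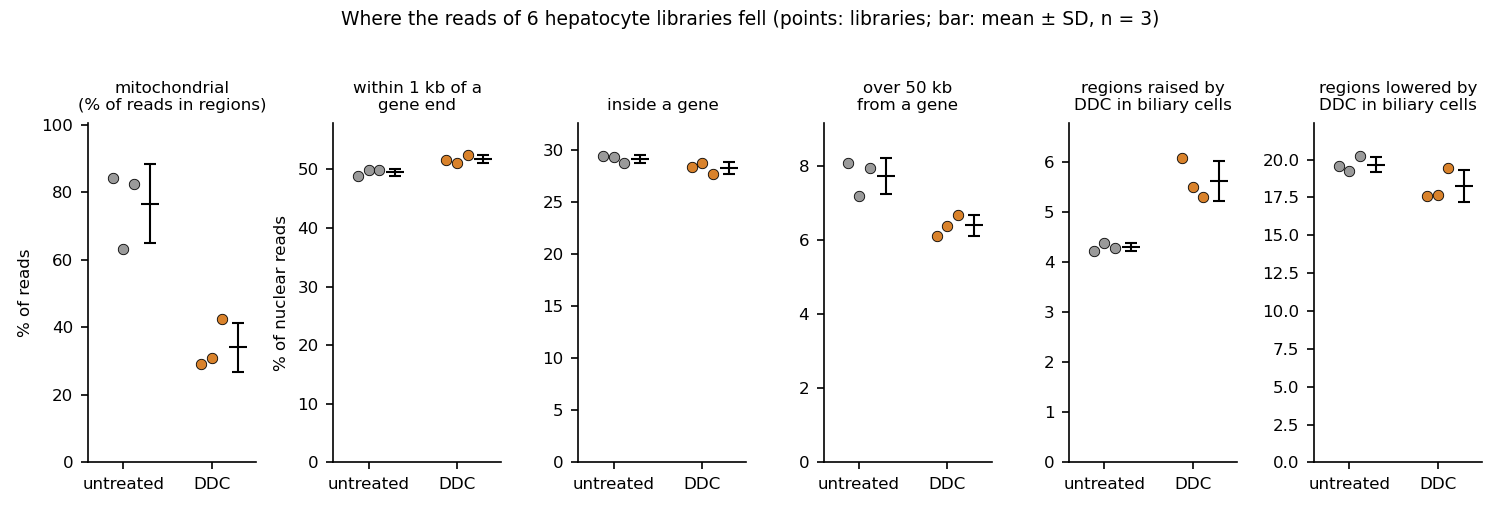
Share of reads (vertical axes, percent) in mitochondrial regions and, of nuclear reads, in 5 kinds of regions, for the 3 untreated and 3 DDC hepatocyte libraries (points) with mean ± SD. The mitochondrial share is 76.6 ± 11.7% and 34.1 ± 7.24%, and the share in regions raised by DDC in biliary cells is 4.29 ± 0.08% and 5.62 ± 0.40%.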

How the data were processed

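Chromatin accessibility was read from 1 deposited matrix of 93217 regions by 15 libraries, 3 in each of 5 groups. Its values are RPM made by the authors, with 2 mitochondrial regions in the total, and the submitters' processing notes name Bowtie2, SAMtools, MACS2, bedtools and mm10, without versions or settings. Although the matrix calls its values TPM, they were whole multiples of 1 read in 100% of the values checked (tolerance 0.02 reads), so reads were recovered. Mitochondrial regions were dropped and values rescaled to 1e6 nuclear reads. Regions (80441, 86.3%) were tied to 17213 of 21883 protein-coding RefSeq genes, 2441 of them to several. The test was limma 3.58.1 (R 4.3.3) with a mean trend and 1 variance weight per group on log2(nuclear RPM + 5), over all 15 libraries, for genes of mean at least 10 and regions of mean at least 20 nuclear RPM, with Benjamini-Hochberg adjustment at 0.05. edgeR 4.0.16 on recovered reads was an alternative, and other scalings, filters, pseudocounts and left-out libraries were tried. edgeR on the hepatocyte libraries alone was chosen after seeing the data. The code was tested on simulated data.

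Genes named were Krt8, Krt18, Fosb, Scd1, cell and heme markers, the 10 largest called changes in each direction with at least 30 reads, up to 4 called and 2 uncalled genes per list by size, 6 regions and 6 differences per direction. Slc6a19, Gapdh, Mt1, Igsf9, Krt7, Mafk, Atf3, Fgb, Fasn, Hes1, Hey2, Ppl, F2rl1, Id1, Tagln2, S100a11, Pkhd1, Mcl1, Apoa1, Ttr, Cps1 and Sqstm1 were named after their values were seen. The comparison, its members and all 29 lists were chosen with earlier results of these data known. One gene that this rule selects is not reported here.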

Additional observations from a re-analysis of the deposited data

Results flagged for a closer look

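At the genes below the effect of DDC differed between hepatocytes and biliary cells by the test of the difference itself (limma, adjusted p under 0.05), and each value is the log2 change in hepatocytes minus that in biliary cells.

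Single genes with higher effects in hepatocytes were Atf3 with a difference of 1.79, Fosb with 1.52, Id1 with 1.32 and Scd1 with 1.73. The difference was called in either direction at 2 of 15 AP-1 genes and 1 of 21 genes of fatty acid synthesis. Over all genes it was called at 0.704% with the higher effect in hepatocytes and at 0.495% with the lower. Other lists also held called differences, with 3 of 32 bile duct and progenitor, 3 of 20 TGF-beta and matrix and 2 of 22 inflammation genes. The heme, secreted protein, pericentral, YAP, ribosomal and neuronal lists held 1 each. Among genes of the cell surface and cytoskeleton, the difference was 1.55 for Tagln2 and 1.27 for Igsf9, which share their region, 1.07 for Ppl and 1.64 for F2rl1. Genes with few or no untreated hepatocyte reads gave 2.12 for Lrtm2, 2.12 for Slc6a19, 2.32 for Izumo2, 2.54 for Tpsg1, 2.77 for Pde6c, 2.93 for Arl1, 2.87 for Olfr94, 2.61 for Tmem100, 2.61 for Bhlhe22 and 2.58 for Lcn12.

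Lower effects in hepatocytes stood at -1.21 for Hmox1, -2.22 for Anxa3, -2.43 for Itgb6, -1.83 for Anxa13 and -1.95 for Cstdc2. They stood at -2.60 for Serpina5, -3.15 for Grik1, -2.18 for Ifnb1 and -1.28 for Syt1. The widest were -3.60 for Gjb5, -3.30 for Fam124b, -3.18 for Lce1m, -3.09 for Il23a and -3.06 for Gm35751.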

How the results depend on the processing

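Main counts were 92 higher and 8 lower genes, 198 higher and 7 lower regions, and 101 higher and 71 lower differences from biliary cells. With a pseudocount of 20 there were 31 lower genes, 130 and 25 regions, and 156 and 144 differences, and with 1 there were 1 lower gene, 2 lower regions, and 60 and 28 differences. Without group weights there were 1544 and 698 genes, 1476 and 449 regions, and 300 and 201 differences. As deposited there were 11410 and 2 genes, 10414 and 1 regions, and 9504 and 44 differences, and Alb (1.55), Hnf4a (1.49), Epcam (0.83), Alas1 (1.14), Ifnb1 (0.08), Apoa1 (1.35) and Ttr (1.07) turned positive, since the mitochondrial share is in that total. TMM scaling gave 44 and 2 genes, 106 and 4 regions and 38 higher differences. edgeR gave 579 and 373 genes, 535 and 172 regions, and 377 and 271 differences, and on the hepatocyte libraries alone 118 and 113 genes and 113 and 64 regions. Thinning every library to 201705 nuclear reads gave 25 lower genes, 109 and 12 regions, and 54 and 47 differences, and it kept 44 of the 92 and 3 of the 8 genes and 76 of the 198 and 2 of the 7 regions. No filter gave 541 and 144 regions, a filter at 2 times the minimum 61 and 3, and the hepatocyte libraries alone in limma, without group weights, 30 higher genes and 10 higher regions. Regions near gene ends alone gave 3 lower genes and 11 lower differences, and Serpina5 stood at 0.22 there. Leaving out 1 library gave 20 to 390 higher and 0 to 123 lower genes, 74 to 376 and 0 to 30 regions, and 15 to 359 and 12 to 173 differences. The cause of these shifts was not tested.

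Deviations of samples with the same replicate number correlated at -0.0467, 0.126 and 0.106, and those with different numbers at -0.184 to 0.132. On libraries this shallow the check cannot decide whether the numbers pair samples. With the replicate block 144 higher and 15 lower genes were called. With the regions called without weights, the shares in regions raised and lowered in biliary cells differed by 0.35 and -0.23 percentage points. Depth of the untreated libraries, 201705 to 605309 nuclear reads, limits what can be seen at low genes.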
